A study of Mus musculus with 12 samples.

Results

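Imprinted genes of the growth-regulating network were followed in hearts of infarcted and sham-operated mice. The set was H19, Meg3, Rian, Mirg, Peg3, Plagl1, Grb10, Mest, Ndn and Dlk1, chosen by gene symbol, and all 10 were among the 16218 genes of the table. All 10 also passed the filter on low values, which asked for at least 5 normalized counts on average across 12 libraries and kept 14906 genes. Poly-A RNA was sequenced from hearts of female wild-type mice labelled as 12 weeks old, with 1 library per animal and 4 animals per group. MI+Agrin animals had a myocardial infarction, made by tying off the left anterior descending coronary artery for good, and were treated with agrin, an extracellular matrix protein that carries heparan sulfate chains. MI+PBS animals had the same infarction and phosphate-buffered saline, the vehicle. Sham animals were operated on without infarction. RNA was taken 2 weeks after infarction. The sources used here do not give the form, dose and route of agrin, the mouse strain or the part of the heart sampled. The series' design also names a group WT MI, not analysed here.

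Genomic imprinting is the expression of a gene from only the maternal or only the paternal chromosome, set by DNA methylation laid down in the germ line. Many imprinted genes act on growth before birth and are silenced in most organs as growth slows after birth. In the mouse H19, Meg3, Rian and Mirg are noncoding RNAs made from the maternal chromosome, and Peg3, Plagl1, Mest, Ndn and Dlk1 encode proteins and are made from the paternal one. Grb10 is made from the maternal chromosome in most tissues and from the paternal one in neurons. The reads do not tell the alleles apart, so imprinting itself was not measured here.

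The members lie at 7 places of the mm10 genome, in GENCODE M21 models. H19 (chr7:142575529-142578143, minus strand) is a noncoding RNA that lies 72.6 kb from the growth factor gene Igf2. The Dlk1-Dio3 region of chromosome 12 holds 4 members on the plus strand, Dlk1 (chr12:109452823-109463336), Meg3 (chr12:109541001-109571726), Rian (chr12:109603940-109661716) and Mirg (chr12:109729764-109749460). Gaps of 77.7 kb, 32.2 kb and 68.0 kb separate them in this order. The other members are Peg3 (chr7:6703892-6730431, minus strand), Ndn (chr7:62346569-62350262, plus strand), Plagl1 (chr10:13060504-13131694, plus strand), Grb10 (chr11:11930508-12038683, minus strand) and Mest (chr6:30723547-30748465, plus strand).

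Several of these genes are hosts of microRNAs, and 21 microRNA genes with 39 mature microRNAs in RefSeq GRCm38.p6 lie within 5 of the members on the same strand. Mirg holds 14 of these genes, Rian 3, Meg3 2, and H19 and Mest 1 each. Poly-A sequencing of gene transcripts does not measure the mature microRNAs, so the sequences below show what the host RNAs can carry and not what was counted. Capitals mark the seed, bases 2 to 8, and 1 arm or pair is shown for each host, with the pair of Mirg arms that share a seed.
H19, mmu-miR-675-5p: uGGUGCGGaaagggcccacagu
H19, mmu-miR-675-3p: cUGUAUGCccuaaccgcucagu
Meg3, mmu-miR-770-5p: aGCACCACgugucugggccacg
Rian, mmu-miR-370-3p: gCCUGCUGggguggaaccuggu
Mirg, mmu-miR-134-5p: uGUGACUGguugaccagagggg
Mirg, mmu-miR-453: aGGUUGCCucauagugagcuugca
Mirg, mmu-miR-496a-5p: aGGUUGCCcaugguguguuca
Mest, mmu-miR-335-5p: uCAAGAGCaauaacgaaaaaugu
The seed GGUUGCC of miR-453 and miR-496a-5p was the only one that occurred in 2 of the 39.

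Meg3, Rian and Mirg are followed together below, and the 250 bases before the start of each in RefSeq GRCm38.p6 are shown for comparison, with CpG dinucleotides in capitals. The Mirg window lies inside the longer GENCODE model, whose start is farther upstream.
Meg3, chr12:109540746-109540995, plus strand: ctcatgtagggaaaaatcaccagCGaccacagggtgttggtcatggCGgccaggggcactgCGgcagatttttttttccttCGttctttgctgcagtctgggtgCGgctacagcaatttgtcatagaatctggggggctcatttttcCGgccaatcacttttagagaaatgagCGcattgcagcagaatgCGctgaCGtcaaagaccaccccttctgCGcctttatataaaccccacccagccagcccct
Rian, chr12:109603695-109603944, plus strand: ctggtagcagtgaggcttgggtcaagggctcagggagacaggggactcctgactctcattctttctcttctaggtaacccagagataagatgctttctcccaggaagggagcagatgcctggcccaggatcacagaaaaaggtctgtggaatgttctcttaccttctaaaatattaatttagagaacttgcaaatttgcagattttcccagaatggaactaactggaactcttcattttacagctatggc
Mirg, chr12:109734731-109734980, plus strand: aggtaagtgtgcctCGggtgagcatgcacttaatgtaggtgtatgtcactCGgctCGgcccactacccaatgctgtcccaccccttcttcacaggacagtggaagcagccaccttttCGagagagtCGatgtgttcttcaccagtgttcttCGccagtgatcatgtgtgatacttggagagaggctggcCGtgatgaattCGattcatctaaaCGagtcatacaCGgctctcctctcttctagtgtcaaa
The Meg3 window shown held 10 CpGs, the Rian window 0 and the Mirg window 10, and a further Meg3 start listed in RefSeq (window chr12:109545148-109545397) had 0, against a median of 6 in all 32851 windows of this length. The letters GGGGCCCC, the core of sites bound by the Plagl1 protein and the same on both strands, occurred in 0.889% of all windows. They were found in 1 of the 13 windows of 9 members, that of Peg3. GCCATNTT, the core bound by the zinc finger protein YY1, was searched on both strands and was in 3.91% of all windows and in 0 of the 13.

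The table gave normalized counts, which are read counts divided by a size factor per library. Recovered totals ran from 20238512 to 22742027 reads in 11 libraries, while sham replicate 2, whose reads were not recovered, summed to 21695925 normalized counts. The 10 cardiomyocyte markers, which define the tissue, summed to between 1705979 and 1938761 normalized counts in MI+Agrin, 1211946 to 1778649 in MI+PBS and 2052153 to 2378526 in sham libraries. MI+PBS replicate 2 gave the highest value of its group for 8 of the 10 members, and sham replicate 3 for 7 of 10. The same MI+PBS replicate 2 stood apart in its markers, with the lowest cardiomyocyte sum of the 12 libraries (1211946, against 1681254 or more in the rest of its group) and the highest sum of dividing cell markers (9777, against 5477 to 5891). Sham replicate 3 had the highest sham sums of activated fibroblast (121964), dividing cell (2642.5), macrophage (26155), neural (1449) and epicardial (3689) markers. Its sums for the other marker lists were not the highest of the group. MI+Agrin replicate 1 had the highest epicardial sum, 6211 against 1541 to 3689 in the other 11 libraries. Member values that moved by over 1.5 times without MI+PBS replicate 2 are given with and without it, and the part of these libraries in other results was not tested. Fold changes are on the log2(value + 1) scale with their SE from limma over all 14906 genes, and adjusted p-values follow Benjamini and Hochberg.

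Levels per kilobase of exon put H19 first and Grb10, an adaptor protein that inhibits the insulin and IGF receptors, next in every group. H19 averaged 824 ± 71.7 normalized counts per kb in MI+Agrin, 966 ± 273 in MI+PBS and 450 ± 121 in sham hearts (SD, n = 4 each). Grb10 averaged 459 ± 36.2 per kb in MI+Agrin, 462 ± 10.6 in MI+PBS and 411 ± 31.0 in sham hearts (SD, n = 4 each). The per-kb levels of these genes overlapped in sham hearts, where H19 ran from 342 to 619 and Grb10 from 367 to 433, and did not overlap in either infarcted group. Ndn and Mest came after them, with sham means of 118 and 95.3 per kb and overlapping ranges. Peg3 (56.0), Plagl1 (47.6) and Meg3 (42.3 per kb in sham) formed the next step, again with overlapping ranges. Rian (17.3), Mirg (2.55) and Dlk1 (1.47 per kb in sham) were the lowest. Exon lengths are the union of all annotated models, which for Meg3 (18.1 kb) and Rian (18.2 kb) is long, so that their per-kb levels depend on the models.

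H19, a noncoding RNA that restrains growth in the mouse embryo and is the precursor of miR-675, was higher in both infarcted groups than in sham hearts. It had 2257, 1830.02, 1989 and 2037 normalized counts in MI+Agrin libraries, 2057, 3384, 2001 and 2068 in MI+PBS libraries, and 951, 1110.4, 842 and 1523 in sham libraries. All 8 infarcted libraries lay above all 4 sham libraries, and apart from MI+PBS replicate 2 the infarcted ones lay between 1830.02 and 2257. H19 rose by 0.91 ± 0.19 in MI+Agrin against sham (1.87-fold, adjusted p = 0.00402). It rose by 1.102 ± 0.19 in MI+PBS against sham (2.15-fold, adjusted p = 0.000524), and by 0.92 without MI+PBS replicate 2 (adjusted p = 0.00089). In bulk heart RNA, more cells of a type and more RNA per cell cannot be told apart.

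Igf2, a growth factor of the fetus that shares its enhancers with H19, did not pass the test against sham. Igf2 averaged 1207 normalized counts in MI+Agrin, 1264 in MI+PBS and 1016 in sham hearts, with fold changes of 0.27 ± 0.15 in MI+Agrin (adjusted p = 0.207) and 0.33 ± 0.15 in MI+PBS (adjusted p = 0.0979). H19 stood at 141% to 190% of the Igf2 count in MI+Agrin libraries, at 157% to 222% in MI+PBS libraries and at 88.4% to 124% in sham libraries. This ratio was thus higher in each infarcted library than in each sham library, but the difference between both genes' fold changes was not tested. Exons of Igf2 share 64.5% of their bases with overlapping models, an antisense RNA among them, so that its count is uncertain. Exons of H19 share 9.15%, with the miR-675 hairpin and 2 short antisense models.

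The maternal noncoding RNAs of chromosome 12 were also higher after infarction. Meg3, a noncoding RNA that acts as a growth suppressor and binds the chromatin repressor PRC2, had 1694, 1022, 1451 and 1134 normalized counts in MI+Agrin libraries, 1247, 1646, 1395 and 1359 in MI+PBS libraries, and 772, 890.05, 658 and 739 in sham libraries. The groups did not overlap, since the lowest infarcted library stood at 1022 and the highest sham library at 890.05. Meg3 rose by 0.77 ± 0.15 in MI+Agrin against sham (1.71-fold, adjusted p = 0.00262) and by 0.88 ± 0.15 in MI+PBS against sham (1.85-fold, adjusted p = 0.00046). MI+Agrin replicates 1 and 4 were as high as the MI+PBS libraries, and replicates 3 and 5 were lower than all of these.

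Rian, the host of a cluster of C/D box small nucleolar RNAs, had 691, 435.3, 626 and 538 normalized counts in MI+Agrin libraries, 626, 807, 705 and 719 in MI+PBS libraries, and 322, 434.38, 231 and 277 in sham libraries. MI+PBS libraries were well above all sham libraries, whereas MI+Agrin replicate 3 and sham replicate 3 stood at nearly the same count. Rian rose by 0.87 ± 0.18 in MI+Agrin against sham (1.83-fold, adjusted p = 0.00393) and by 1.21 ± 0.18 in MI+PBS against sham (2.31-fold, adjusted p = 0.000228).

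Mirg, which carries the distal microRNAs shown above, was scarce. It had 33.4, 38.5, 37.5 and 29.2 normalized counts in MI+Agrin libraries, 33.04, 62.1, 41.3 and 45.3 in MI+PBS libraries, and 18.2, 33, 9.51 and 13.8 in sham libraries. Between 9 and 64 reads lie behind these values in the 11 libraries with recovered reads, and sham replicate 3 reached the level of the lowest infarcted libraries. Mirg rose by 1.34 ± 0.31 in MI+PBS against sham (2.54-fold, adjusted p = 0.00394), and by 1.18 without MI+PBS replicate 2 (adjusted p = 0.0145). It rose by 0.99 ± 0.31 in MI+Agrin against sham (1.99-fold, adjusted p = 0.0318), a call that ended in edgeR (adjusted p = 0.103) and DESeq2 (adjusted p = 0.0769) on recovered reads. Leaving out any of MI+Agrin replicates 1, 3 and 4 or sham replicates 2, 4 and 5 also ended it, with adjusted p-values from 0.0501 to 0.0929. The tests on reads lack sham replicate 2, so the part of the method and that of the missing library cannot be told apart.

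**Figure D1:**
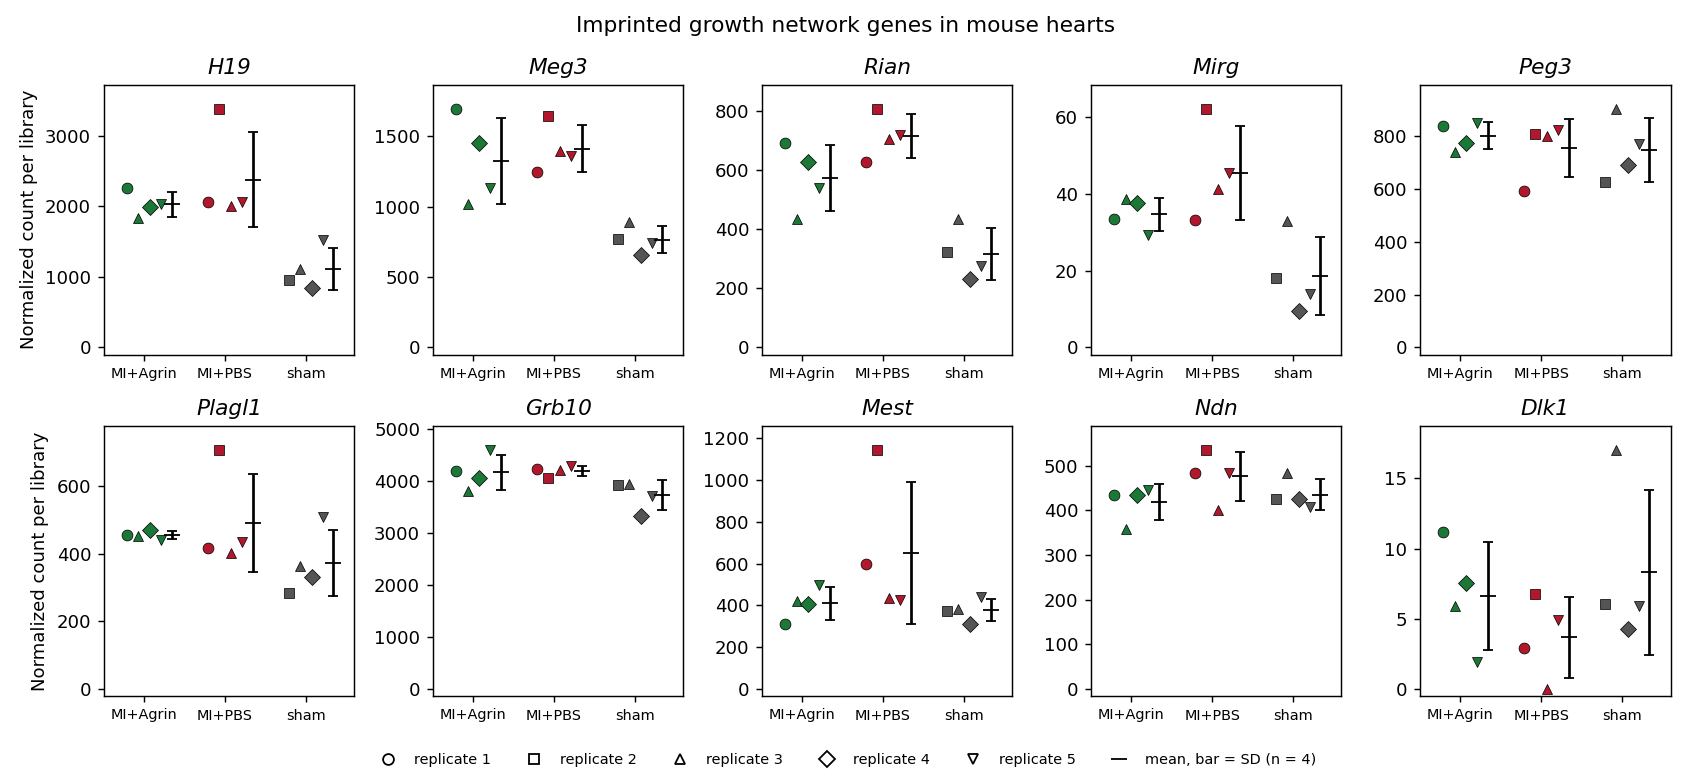
Normalized counts of the 10 members (vertical axes, linear, a scale of its own for each gene) in MI+Agrin, MI+PBS and sham libraries, with a symbol for each replicate number and the mean with its SD (n = 4) beside each group. H19, Meg3, Rian and Mirg are lower in sham hearts, Peg3 and Ndn overlap between all 3 groups, and MI+PBS replicate 2 stands out for H19 (3384), Plagl1 (706) and Mest (1145).

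The RNAs of chromosome 12 differed in how evenly they moved. Rian stood at 40.8%, 42.6%, 43.1% and 47.4% of the Meg3 count in MI+Agrin libraries, at 50.2%, 49.0%, 50.5% and 52.9% in MI+PBS libraries, and at 41.8%, 48.8%, 35.2% and 37.5% in sham libraries. The MI+PBS libraries had the 4 highest ratios of the 12, and MI+Agrin and sham libraries overlapped. Mirg stood at 1.97% to 3.77% of Meg3 in MI+Agrin, 2.65% to 3.77% in MI+PBS and 1.44% to 3.71% in sham libraries, which overlapped throughout. These ratios are descriptions with no test.

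At the flanks of this region lie paternal genes that encode proteins. Dio3, the deiodinase that inactivates thyroid hormone, is no member but also changed, with 24.3, 46.4, 68.5 and 34.8 normalized counts in MI+Agrin libraries, 69, 66.9, 40.3 and 50.3 in MI+PBS libraries, and 6.06, 12.8, 7.4 and 8.87 in sham libraries. All infarcted libraries exceeded all sham libraries. Dio3 rose by 2.13 ± 0.32 in MI+Agrin against sham (adjusted p = 0.000672) and by 2.57 ± 0.32 in MI+PBS against sham (adjusted p = 7.59e-05). Dio3 reached 1.44% to 4.72% of the Meg3 count in MI+Agrin and 2.89% to 5.53% in MI+PBS libraries, against 0.785% to 1.436% in sham libraries, so that MI+Agrin replicate 1 stayed at the upper end of sham.

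Dlk1, a transmembrane protein with EGF-like repeats that inhibits adipocyte differentiation, was near the limit of detection. It had 11.2, 5.92, 7.51 and 1.88 normalized counts in MI+Agrin libraries, 2.92, 6.79, 0 and 4.93 in MI+PBS libraries, and 6.06, 17.0, 4.23 and 5.91 in sham libraries. At most 16 reads were recovered in any of 11 libraries, and the 0 reads of MI+PBS replicate 3 allow up to 3 reads, or 3.1 normalized counts, covering counting error only. Fold changes against sham were -0.29 ± 0.66 in MI+Agrin (adjusted p = 0.773) and -1.17 ± 0.66 in MI+PBS (adjusted p = 0.168). Their 95% intervals ran from -1.71 to 1.13 and from -2.59 to 0.25. Both held 0, so neither a fall nor a rise is shown at this depth. The interval of MI+PBS reached farther down than up, so that a large fall lies within it. With single libraries left out, the value ran from -0.57 to 0.12 in MI+Agrin and from -1.53 to -0.54 in MI+PBS, the last without MI+PBS replicate 3, the library at 0.

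**Figure D2:**
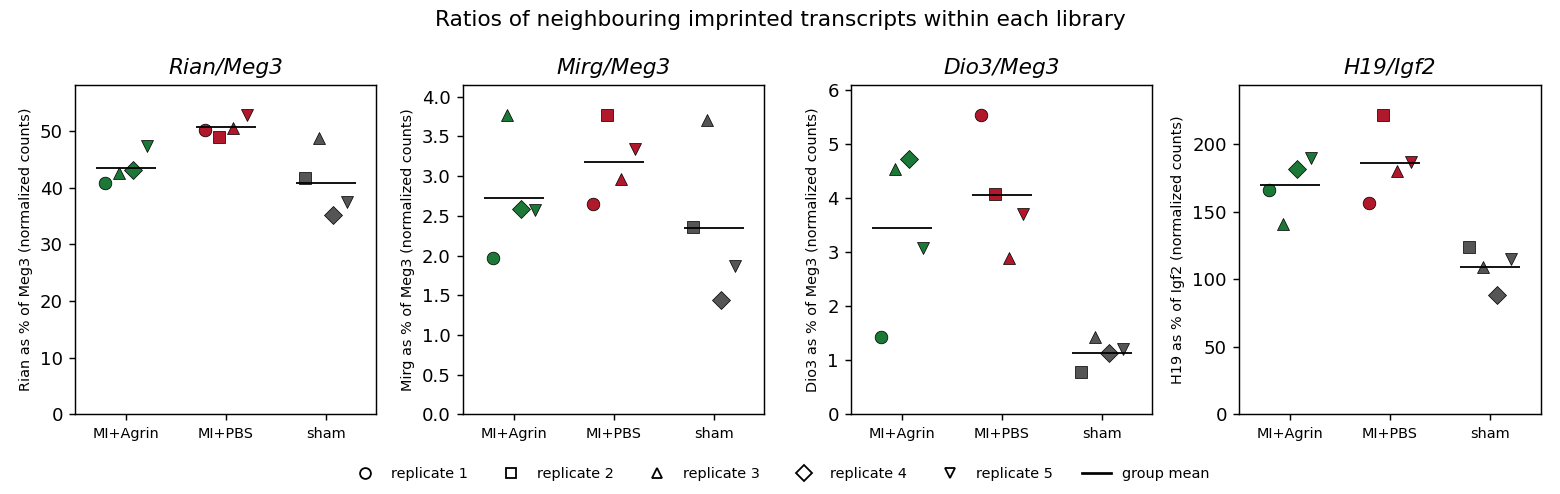
Count of one imprinted RNA as a percentage of its neighbour's within each library (vertical axes, linear), for Rian, Mirg and Dio3 over Meg3 and for H19 over Igf2, in MI+Agrin, MI+PBS and sham libraries, with a line at each group mean. H19 is at 88.4% to 124% of Igf2 in sham and at 141% or more in every infarcted library, while Mirg over Meg3 overlaps between the groups.

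Among the members that encode proteins, Grb10 passed in 1 comparison by a small margin. Grb10 had 4197, 3816, 4059 and 4601 normalized counts in MI+Agrin libraries, 4226, 4071, 4214 and 4302 in MI+PBS libraries, and 3935, 3938, 3339 and 3722 in sham libraries. It rose by 0.17 ± 0.07 in MI+PBS against sham (1.13-fold, adjusted p = 0.0473), with all MI+PBS libraries above all sham libraries. The value in MI+Agrin was similar at 0.16 ± 0.07 but did not pass (adjusted p = 0.0891), and MI+Agrin replicate 3 lay among the sham libraries. The call in MI+PBS was lost without MI+PBS replicate 1, 2, 3 or 5, or without sham replicate 4 or 5 (adjusted p-values from 0.0539 to 0.148), and without a trend in limma (adjusted p = 0.0705) or a filter on low values (adjusted p = 0.0501). It was also lost with the replicate number as a block, at 0.14 (adjusted p = 0.152).

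Plagl1, a zinc finger transcription factor that slows the cell cycle and activates other imprinted genes, did not pass. It had 455, 453, 469 and 441 normalized counts in MI+Agrin libraries, 416, 706, 402 and 435 in MI+PBS libraries, and 283, 364, 332 and 508 in sham libraries. The MI+Agrin values were tightly grouped and sham replicate 5 lay above them. The fold change was 0.32 ± 0.19 in MI+Agrin (adjusted p = 0.212) and 0.39 ± 0.19 in MI+PBS against sham (adjusted p = 0.107). In MI+PBS it stood at 0.20 without MI+PBS replicate 2 and, without sham replicate 5, passed at 0.55 (adjusted p = 0.0224).

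Mest, a protein of the alpha/beta hydrolase fold that is linked to fat cell size, had an uneven MI+PBS group. It had 309, 422, 405 and 499 normalized counts in MI+Agrin libraries, 597, 1145, 433 and 425 in MI+PBS libraries, and 371, 381, 312 and 439 in sham libraries. MI+PBS replicates 1 and 2 were above all other libraries, and the other MI+PBS libraries lay inside the sham range. The fold change in MI+PBS against sham was 0.67 ± 0.26 (adjusted p = 0.0531), and 0.36 without MI+PBS replicate 2 (adjusted p = 0.115). It passed without MI+PBS replicate 3 or 5 (adjusted p = 0.0288 and 0.0260) and in DESeq2 on recovered reads, which lack sham replicate 2 (adjusted p = 0.0290). The value for MI+Agrin against sham was 0.11 ± 0.26 (adjusted p = 0.781). Exons of Mest share 23.1% of their bases with Copg2 on the other strand, and the sources used here do not state whether counting used strand, so that reads of both cannot be told apart.

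Peg3, a zinc finger protein of the paternal chromosome with roles in cell death and maternal behaviour, and Ndn, which encodes the growth suppressor necdin of postmitotic neurons, had small fold changes. Peg3 had 837, 740.3, 774 and 847 normalized counts in MI+Agrin libraries, 589.9, 807, 799.96 and 820.03 in MI+PBS libraries, and 624, 902, 691 and 768 in sham libraries. Its fold changes against sham were 0.11 ± 0.12 in MI+Agrin (adjusted p = 0.525) and 0.02 ± 0.12 in MI+PBS (adjusted p = 0.928), with a 95% interval from -0.25 to 0.28 for the second, which was -0.021 without MI+PBS replicate 2. Ndn had 435, 359, 436 and 447 normalized counts in MI+Agrin libraries, 485, 535, 401 and 484 in MI+PBS libraries, and 427, 484, 425 and 407 in sham libraries. Its fold changes were -0.06 ± 0.10 in MI+Agrin (adjusted p = 0.694) and 0.12 ± 0.10 in MI+PBS (adjusted p = 0.332), or 0.065 without MI+PBS replicate 2. The 95% intervals of Peg3 and Ndn against sham ran from -0.27 at the lowest to 0.37 at the highest in both comparisons.

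**Figure D3:**
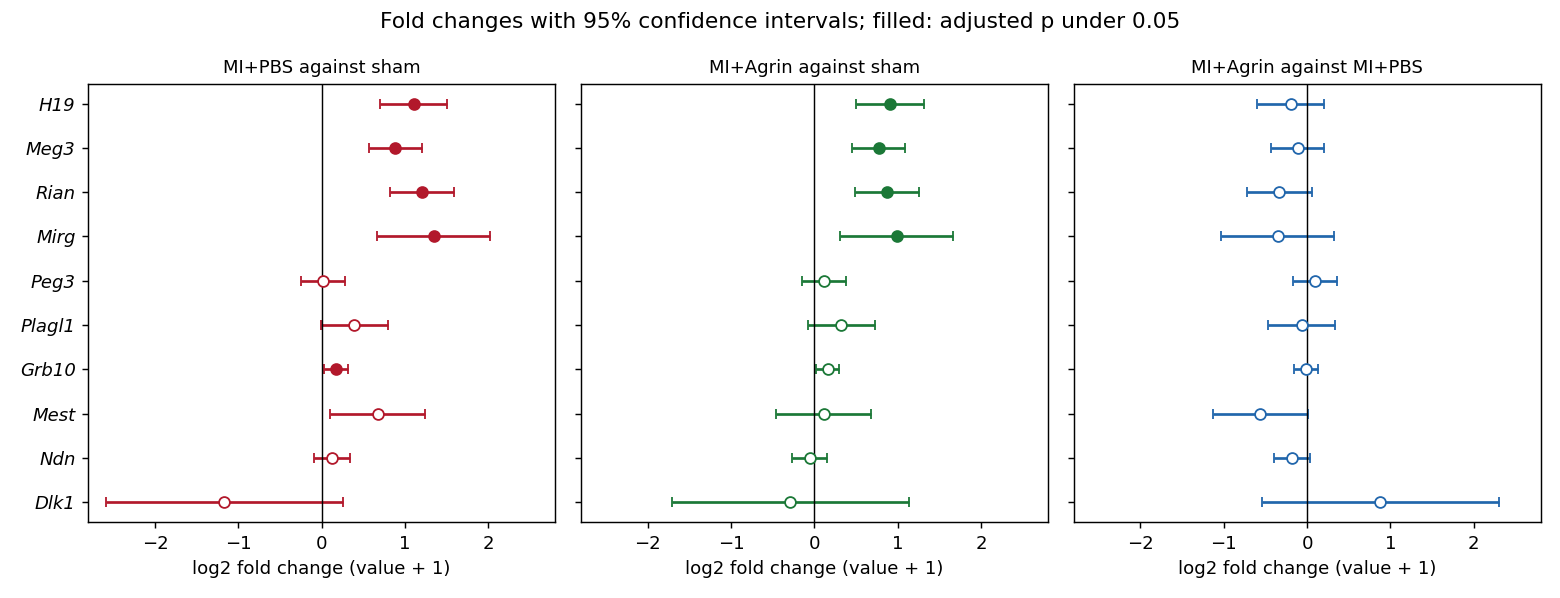
Log2 fold changes (horizontal axes, on the log2(value + 1) scale) with 95% confidence intervals from limma for the 10 members in MI+PBS against sham, MI+Agrin against sham and MI+Agrin against MI+PBS, filled where the adjusted p was under 0.05. The noncoding RNAs H19, Meg3, Rian and Mirg lie between 0.77 and 1.34 in both comparisons with sham, and no point of MI+Agrin against MI+PBS is filled.

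In MI+PBS against sham 5 of the 10 members were called, all higher, where 44.4% of all 14906 genes were called in either direction, 22.6% higher and 21.8% lower. For MI+Agrin against sham 4 of 10 were called, all higher, where 28.6% of all genes were called, 15.4% higher and 13.2% lower. The share called in either direction was thus near that of all genes, and is not a result about the members. Both comparisons share the sham libraries. The 4 noncoding members were called higher in both, and of the 6 that encode proteins 1 (Grb10) was called in MI+PBS and 0 in MI+Agrin, a contrast that was not tested. Meg3, Rian and Mirg are neighbours on the same strand of the same chromosome, so their calls may not be independent. The median log2 fold change of the members was 0.24 in MI+Agrin and 0.53 in MI+PBS, against -0.0021 and -0.011 over all genes. The MI+PBS and sham libraries did not overlap in 5 members, all higher in MI+PBS, where 21.6% of all genes were separated this way, and MI+Agrin and sham libraries did not overlap in 3, where it was 16.8%.

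Agrin against vehicle gave no call. In MI+Agrin against MI+PBS 0 of the 10 members passed in limma, edgeR or DESeq2, where 1.64% of all genes passed in limma, 0.751% higher and 0.892% lower. An unadjusted p under 0.05 was reached by 0 of 10 members and by 18.8% of all genes. The noncoding RNAs were between 0.11 and 0.35 lower on the log2 scale, at -0.20 ± 0.19 for H19 (adjusted p = 0.597), -0.11 ± 0.15 for Meg3 (adjusted p = 0.714), -0.33 ± 0.18 for Rian (adjusted p = 0.331) and -0.35 ± 0.31 for Mirg (adjusted p = 0.565). Their 95% intervals ran down to -0.60, -0.43, -0.72 and -1.03 and all held 0, so that a fall of this size was not detectable and an equal level is not shown. Mest had the smallest p, at -0.56 ± 0.26 (adjusted p = 0.271), and its value was -0.25 without MI+PBS replicate 2. The noncoding RNAs also moved toward 0 when this library was left out, to -0.014 for H19, -0.036 for Meg3, -0.27 for Rian and -0.19 for Mirg. Peg3 (0.10 ± 0.12), Plagl1 (-0.07 ± 0.19), Grb10 (-0.02 ± 0.07), Ndn (-0.18 ± 0.10) and Dlk1 (0.88 ± 0.66) had adjusted p-values from 0.335 to 0.926. Of these, Plagl1 turned to 0.12 and Grb10 stood at -0.030 without MI+PBS replicate 2.

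Other genes reported as imprinted in the mouse moved both ways. Of 44 listed, 35 were in the table and 31 were tested. Against sham, 4 were higher and 4 lower in MI+Agrin, and in MI+PBS against sham 4 were higher and 6 lower, with medians of -0.05 and -0.12. The share called in either direction was 25.8% in MI+Agrin and 32.3% in MI+PBS, against 28.6% and 44.4% of all genes, so these counts are not a result about imprinted genes. Dio3, Peg10, Peg12 and Gatm were the higher ones in both. Peg10, a placental gene derived from a retrotransposon, rose by 0.98 ± 0.16 in MI+Agrin (adjusted p = 0.00097) and by 1.16 ± 0.16 in MI+PBS (adjusted p = 0.000126). Gatm, an enzyme of creatine synthesis, rose by 0.44 ± 0.11 in MI+Agrin (adjusted p = 0.0114) and by 0.82 ± 0.11 in MI+PBS (adjusted p = 0.000138). Peg12 rose by 0.83 ± 0.19 in MI+Agrin (adjusted p = 0.00716) and by 1.37 ± 0.19 in MI+PBS (adjusted p = 0.000157).

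The lower ones in both were Slc22a3, Zim1, Copg2 and Peg13, and in MI+PBS Ube3a and Zrsr1 too. Slc22a3, an organic cation transporter, fell by 1.03 ± 0.19 in MI+Agrin (adjusted p = 0.00199) and by 1.15 ± 0.19 in MI+PBS (adjusted p = 0.000397) on the log2 scale. Copg2, a subunit of the COPI vesicle coat and the antisense neighbour of Mest, fell by 0.34 ± 0.07 in MI+Agrin (adjusted p = 0.00543) and by 0.29 ± 0.07 in MI+PBS (adjusted p = 0.00668). Cdkn1c, a maternal inhibitor of cyclin-dependent kinases, did not pass at -0.25 ± 0.21 in MI+Agrin (adjusted p = 0.402) and -0.53 ± 0.21 in MI+PBS (adjusted p = 0.0539). Igf2r, the maternal receptor that clears the Igf2 protein, stood at 0.06 ± 0.07 in MI+Agrin (adjusted p = 0.555) and 0.05 ± 0.07 in MI+PBS (adjusted p = 0.559). Between MI+Agrin and MI+PBS 0 of the 31 passed in limma, and 3 had an unadjusted p under 0.05, where it was 1.64% and 18.8% of all genes.

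**Figure D4:**
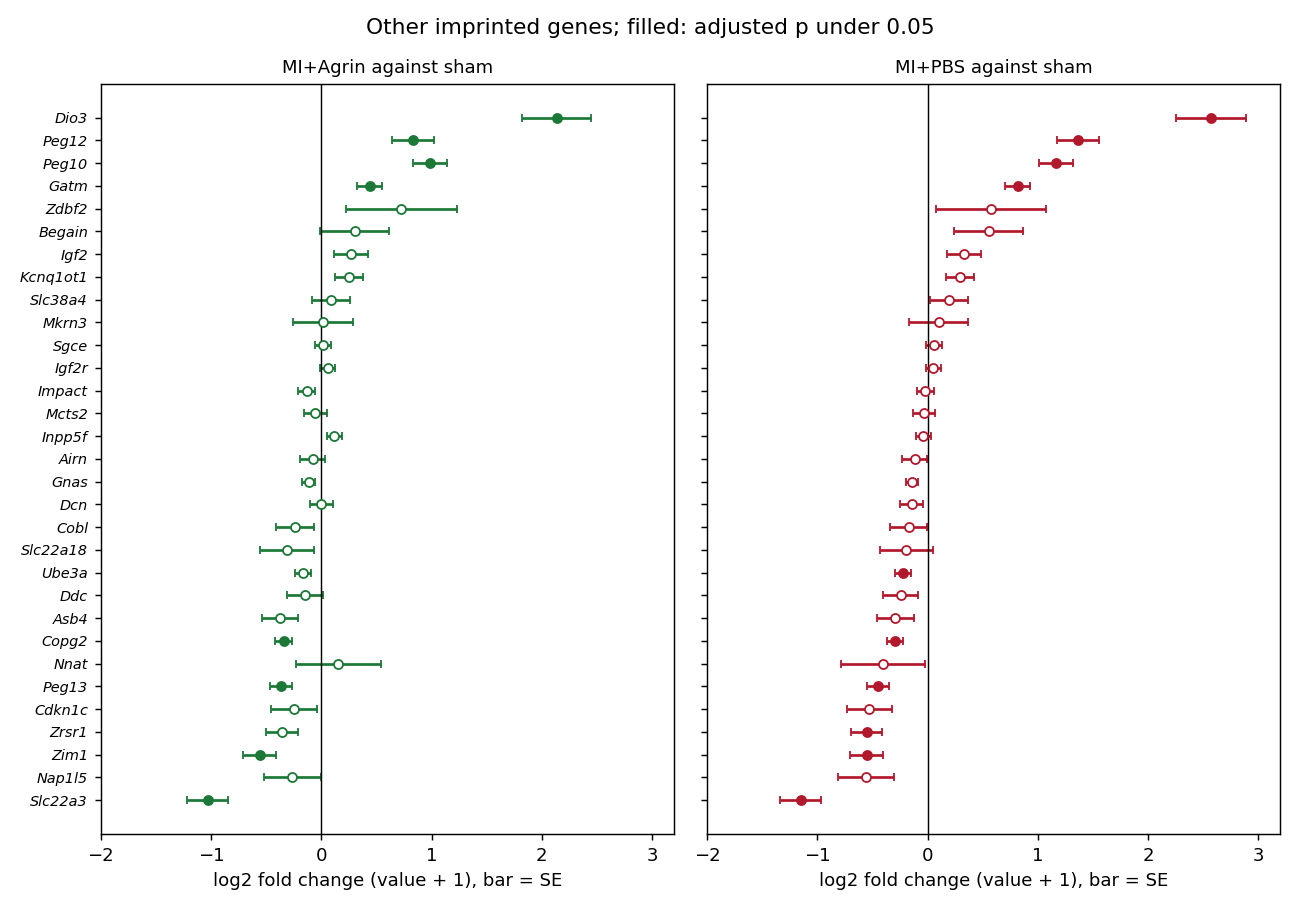
Log2 fold changes (horizontal axes, on the log2(value + 1) scale) with their SE for 31 imprinted genes outside the set, in MI+Agrin against sham and MI+PBS against sham, ordered by the second and filled where the adjusted p was under 0.05. Dio3 stands highest at 2.13 and 2.57 and Slc22a3 lowest at -1.03 and -1.15, with most genes near 0.

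Of 13 tested genes that write, keep or remove DNA methylation or bind imprinted control regions, 4 were higher and 2 lower in MI+Agrin against sham, and 5 were higher and 3 lower in MI+PBS against sham (medians 0.04 and 0.16). The share called was 46.2% and 61.5%, against 28.6% and 44.4% of all genes, a difference that was not tested. Uhrf1, which brings the maintenance methyltransferase to newly copied DNA, rose by 1.08 ± 0.25 in MI+Agrin (adjusted p = 0.00742) and by 1.80 ± 0.25 in MI+PBS (adjusted p = 0.000154). Tet1, which oxidizes methylated cytosine, fell by 1.15 ± 0.20 in MI+Agrin (adjusted p = 0.00167) and by 1.66 ± 0.20 in MI+PBS (adjusted p = 7.09e-05). Dnmt3a, a methyltransferase that adds new marks, fell by 0.31 ± 0.07 in MI+Agrin (adjusted p = 0.00545) and by 0.42 ± 0.07 in MI+PBS (adjusted p = 0.000373). Its cofactor Dnmt3l rose by 1.44 ± 0.21 in MI+Agrin (adjusted p = 0.000572) and by 1.43 ± 0.21 in MI+PBS (adjusted p = 0.000184). Between MI+Agrin and MI+PBS 0 of these 13 passed in limma, and 3 had an unadjusted p under 0.05, where it was 1.64% and 18.8% of all genes. DNA methylation was not measured.

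Of 14 tested genes of insulin and IGF signaling, the axis on which Igf2, H19 and Grb10 act, 3 were higher and 2 lower in MI+Agrin against sham, and 4 were higher and 3 lower in MI+PBS against sham (medians 0.04 and 0.08). The share called was 35.7% and 50%, against 28.6% and 44.4% of all genes. Grb14, an inhibitory adaptor related to Grb10, fell by 0.56 ± 0.10 in MI+Agrin (adjusted p = 0.00144) and by 0.69 ± 0.10 in MI+PBS (adjusted p = 0.000144). Igf2bp2, which binds the Igf2 mRNA, rose by 0.98 ± 0.12 in MI+Agrin (adjusted p = 0.000272) and by 1.06 ± 0.12 in MI+PBS (adjusted p = 4.44e-05). Irs2, a docking protein of the insulin receptor, was the 1 gene of the list called in MI+Agrin against MI+PBS, at -1.09 ± 0.12 (adjusted p = 0.000975), where 1.64% of all genes were called. Of 17 genes of Notch signaling and fat cell differentiation, on which Dlk1 acts, 4 were higher and 2 lower in each comparison with sham, with medians of 0.09 in MI+Agrin and 0.08 in MI+PBS. This is 35.3% called in each, against 28.6% of all genes in MI+Agrin and 44.4% in MI+PBS. Hey2 and Cebpb were called between MI+Agrin and MI+PBS, where Hey2 rose by 0.47 ± 0.11 (adjusted p = 0.0483) and Cebpb fell by 0.53 ± 0.09 (adjusted p = 0.00983).

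Markers of several cell types moved with the rises against sham. Over all genes, 15.4% were called higher and 13.2% lower in MI+Agrin against sham, and 22.6% and 21.8% in MI+PBS against sham. Of 12 activated fibroblast markers, 8 rose in MI+Agrin and 9 in MI+PBS, with summed levels of 171985 to 251807 normalized counts in MI+Agrin, 253181 to 296858 in MI+PBS and 77066 to 121964 in sham libraries. All 12 markers of dividing cells rose in both, with sums of 3565 to 5511 in MI+Agrin, 5477 to 9777 in MI+PBS and 1195 to 2642 in sham libraries. Of 11 macrophage markers 10 rose in MI+Agrin and 11 in MI+PBS, with sums of 31202 to 48259 in MI+Agrin, 42101 to 50319 in MI+PBS and 21299 to 26155 in sham libraries. Of 10 cardiomyocyte markers 4 fell in MI+Agrin and 6 in MI+PBS. Of 12 resting fibroblast markers, 3 rose and 1 fell in MI+Agrin, and 3 rose and 3 fell in MI+PBS, with sums of 81766 to 104657 in MI+Agrin, 70322 to 90907 in MI+PBS and 93908 to 111167 in sham libraries. Gsn alone made up a large part of these sums, with means of 53447 in MI+Agrin, 40960 in MI+PBS and 70773 in sham hearts. The median log2 fold change of the 12 against sham was 0.10 in MI+Agrin and 0.14 in MI+PBS. In MI+Agrin against MI+PBS 0 markers of these 5 lists passed in limma, while an unadjusted p under 0.05 was reached by 7 of 12 dividing cell, 3 of 12 activated fibroblast, 3 of 12 resting fibroblast, 1 of 10 cardiomyocyte and 0 of 11 macrophage markers. Over all genes, 1.64% passed in this comparison and 18.8% had an unadjusted p under 0.05. Of 10 endothelial markers 1 was called higher and 1 lower in MI+Agrin against MI+PBS, and the median log2 fold change of the list was 0.02. Kdr, a VEGF receptor, was higher by 0.56 ± 0.09 (adjusted p = 0.00756). The junction protein Esam was lower, at -0.32 ± 0.05 (adjusted p = 0.00855), and 5 of 10 had an unadjusted p under 0.05. The part of these cell types in the rises of H19, Meg3, Rian and Mirg was not tested.

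Skeletal muscle, where H19 and the chromosome 12 RNAs are abundant in the mouse, had low marker levels. Its markers summed to 64.0 to 175 in MI+Agrin, 82.6 to 210.5 in MI+PBS and 75.8 to 90.9 normalized counts in sham libraries. MI+Agrin replicate 1 (175) and MI+PBS replicate 2 (210.5) were the highest of all, against at most 99.5 in the other MI+Agrin and 112.6 in the other MI+PBS libraries. A single marker, Tnnt3, gave 80.06 and 127.07 of these counts, against 10.35 to 33.07 in the other libraries. The muscle regulators Myod1 and Myog were at 0 in 8 and 6 of the 12 libraries and never above 2.96 normalized counts, and of 5 tested markers 0 passed in MI+Agrin and 1 in MI+PBS against sham. Adipocyte markers, which bear on Mest and Dlk1, summed to 11476 to 15105 in MI+Agrin, 9521 to 11996 in MI+PBS and 10078 to 11565 normalized counts in sham libraries. Fabp4 alone, at 8292 to 11045, was most of each sum. Other adipocyte markers varied more over the 12 libraries, with Adipoq at 92.3 to 758 and Plin1 at 36.2 to 401. Of 10 of them 0 passed in MI+Agrin and 3 fell in MI+PBS against sham. Between MI+Agrin and MI+PBS 0 of 10 passed in limma and 6 had an unadjusted p under 0.05, where it was 1.64% and 18.8% of all genes. The median log2 fold change of the list was 0.996 in this comparison, and against sham 0.27 in MI+Agrin and -0.55 in MI+PBS. The part of adipocytes in the Mest values was not tested. The brown fat gene Ucp1 stood at 829 in MI+Agrin replicate 1, against 0 to 60.7 in the other libraries. Without that library the values of H19, Meg3 and Rian in MI+Agrin against sham were 0.85, 0.64 and 0.77, while Mirg stood at 1.005 and lost its call (adjusted p = 0.0501). The part of fat in these rises was not tested. Of the other markers, against sham in MI+Agrin 2 of 10 endothelial genes fell, 1 of 8 neural genes rose and 1 of 7 epicardial genes rose. In MI+PBS 1 of 10 endothelial genes rose and 2 fell, 2 of 8 neural genes rose and 0 of 7 epicardial genes passed. Over all genes, 28.6% were called in MI+Agrin and 44.4% in MI+PBS against sham, in either direction.

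The genes whose pattern over the 12 libraries was most like that of a member were found by the root mean square difference of centred log2 values, among 12354 genes with a mean of at least 50. For H19 they were Rab15 (0.14), Tsku (0.17) and Gas2l3 (0.17), where H19 itself had a spread of 0.55 on this scale. For Meg3 they were Ugdh (0.10), Medag (0.12) and Srm (0.12), and for Rian Csrp2 (0.15), Gda (0.16) and Medag (0.16). Medag was thus near both Meg3 and Rian. For Mirg, the nearest genes were farther away, at 0.24 for Ccnb2, 0.25 for Creb3l1 and 0.26 for Bora. For Grb10 they were Fndc3a (0.05), Acap2 (0.05) and Uimc1 (0.05), where the spread of Grb10 itself was 0.11.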

How the data were processed

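Poly-A RNA of 12 hearts was sequenced as 61 bp single reads, 4 animals to a group, and p-values rest on the variation among animals. The authors' deposited table holds a signal per gene and library, normalized counts per the file headers. The submitters' processing notes name cutadapt, STAR 2.4.2a, HTSeq, DESeq2 1.10.1 and mm10, and the annotation and strand setting are not stated in the sources used here. Values below 2000 in 11 libraries were whole multiples of 1 step per library (100% within 0.0055), so whole reads were recovered. Whole reads were not recovered for sham replicate 2, which did not pass the check used, and tests on reads leave it out. The columns belong to 12 samples and no other column of values was present.

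Genes with a mean of at least 5 were kept, 1 was added and log2 taken. All libraries entered 1 limma 3.58.1 model (R 4.3.3) of group means with an intensity trend, tested on simulated data, at a Benjamini-Hochberg adjusted p of 0.05. The members and lists were chosen with earlier results of these data known. Every member is named in every comparison. List genes with values are among the called genes with the 4 smallest p-values in at least 1 comparison, plus Igf2, Cdkn1c and Igf2r, and others, Kdr and Esam included, were chosen after their values were seen, as was the use of Dio3 values per library. Alternatives included read-based tests with edgeR 4.0.16 and DESeq2 1.42.0. Coordinates and exon lengths are from GENCODE M21 and sequences from RefSeq GRCm38.p6, matched by symbol for 9 of 10 promoters. Matplotlib 3.10.9 drew the figures.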

Additional observations from a re-analysis of the deposited data

Results flagged for a closer look

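In 5 of 30 sets of 4 libraries (10 members in 3 groups), 1 library lay far from the other 3 relative to the range of the set. Chance gives about 1 in 20 for a single set of normally distributed values. The 30 sets share the same 12 libraries, so the count of 5 cannot be judged against this rate. MI+PBS replicate 2 had 3384.26 normalized counts of H19, where the rest of its group had 2000.93 to 2067.81. Plagl1 stood at 706.14 in the same library, against 402.05 to 434.65. Peg3 stood at 589.89 in MI+PBS replicate 1, against 799.96 to 820.03. Ndn stood at 359.29 in MI+Agrin replicate 3, against 434.77 to 446.75. Dlk1 stood at 17.03 in sham replicate 3, against 4.23 to 6.06, a difference of few reads.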

How the results depend on the processing

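The count of members called stayed within 1.5 times under every alternative run. With each library left out it ran from 3 to 4 in MI+Agrin against sham, from 4 to 5 in MI+PBS against sham, and was 0 throughout in MI+Agrin against MI+PBS. H19, Meg3 and Rian kept their calls against sham under all 22 alternatives in each comparison. The calls of Mirg in MI+Agrin and of Grb10 in MI+PBS, both against sham, were lost under 9 and 11 of 22, and the cause was not tested.

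Directions changed for values near 0 that were not called, and the tests on reads below also lacked sham replicate 2. Peg3 in MI+PBS against sham turned to -0.058 in edgeR and -0.061 in DESeq2 on recovered reads, to -0.021 when MI+PBS replicate 2 was left out jointly with MI+Agrin replicate 1, and ran from -0.066 to 0.13 with single libraries left out. In MI+Agrin against sham, with single libraries left out, Ndn ran from -0.090 to 0.014 and Dlk1 from -0.57 to 0.12. In MI+Agrin against MI+PBS, Grb10 turned to 0.017 with the replicate block, and Plagl1 to 0.023 with array quality weights and to 0.12 without both those libraries. With single libraries left out, Meg3 ran from -0.24 to 0.0031, Grb10 from -0.064 to 0.026, Peg3 from -0.019 to 0.14 and Plagl1 from -0.15 to 0.12.

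No label says that a shared replicate number pairs animals. Deviations of same-numbered libraries correlated between -0.285 and 0.121. Differently numbered libraries were not compared as a reference, so these values do not settle whether animals were paired. With the replicate number as a block, 4 members were called in MI+Agrin against sham, 4 in MI+PBS against sham, where Grb10 lost its call (adjusted p = 0.152), and 0 in MI+Agrin against MI+PBS.

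Over all genes, the count of 4261 called in MI+Agrin against sham became 2062 at an adjusted p of 0.01. The count of 245 in MI+Agrin against MI+PBS became 602 in DESeq2, 106 with only the groups compared, 75 with the block, 83 and 594 at adjusted p of 0.01 and 0.1, 137 without MI+Agrin replicate 3, 145 without MI+PBS replicate 2 and 137 without MI+PBS replicate 2 and MI+Agrin replicate 1. TMM rescaling left the medians of all genes within 0.01. Dlk1 was not tested with a mean of at least 20. Depth limits Dlk1 and Mirg.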
